A study of Mus musculus with 32 samples.

Results

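Transcripts of 10 genes of bile acid synthesis, transport and sensing were followed in 32 mouse livers. The set comprised Cyp7a1, Cyp8b1, Cyp7b1, Cyp27a1, Slc10a1, Abcb11, Slco1a1, Baat, Nr0b2 and Nr1h4, chosen by name. Every probe set annotated to a single gene with one of these symbols was taken. Of the 12488 probe sets on the array, 10 met this rule, and they covered 7 of the 10 genes. Cyp27a1, Abcb11 and Slco1a1 had no probe set of their own here and were not analysed. A probe set entered the tests when it lay above the 30th percentile of its array on at least 3 arrays, which kept 9254 probe sets and 9 of the 10. The tenth, another Slc10a1 probe set, read between 2.91 and 3.40 on every array and was not tested. The 9 tested probe sets therefore hold 2 each for Cyp7b1 and Slc10a1, which are not independent of one another.

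All livers came from male C57BL/6 mice aged 3 months and homozygous for a floxed RPS6 gene, so the controls carried the floxed alleles too. Mice with the mx-cre transgene (PLUS, called Cre plus here) express Cre recombinase from an interferon-responsive promoter, which was induced with polyinosinic-polycytidylic acid to delete RPS6. Mice without the transgene (MINUS, called Cre minus here) served as controls. The sources used here do not give the interval between injection and surgery, or whether these mice were injected. Livers were sampled 0, 20, 30 or 40 h after partial hepatectomy, and no sham-operated livers are named. Groups had 4 livers, but Cre plus had 3 at 30 h and 5 at 40 h. The interferon-responsive promoter is not restricted to hepatocytes, and total RNA of whole liver pools all its cell types.

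The Rps6 probe set, which is shared with the pseudogene Rps6-ps4, read 6.24 to 7.69 on a log2 scale in the 16 Cre plus livers, against 10.99 to 11.82 in the 16 Cre minus livers. All values given are log2 expression values, with array medians between 5.88 and 5.99. All 9 measured hepatocyte markers had a mean level higher than that of 97.46% of probe sets or more, while 5 of 6 cholangiocyte markers lay below the median. The mean correlation of an array with the rest of its group was 0.943 to 0.991. The arrays with a mean r under 0.95 were Cre minus 30 h C, Cre plus 30 h A and Cre plus 40 h D. The labels place 15 arrays in batch PHX2 and 17 in batch PHX3, with both batches in every group, and the batch was a term of the fit. Nothing in the labels ties each sample to a mouse of its own, so the p-values reflect only the spread from sample to sample.

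Bile acids are made from cholesterol in hepatocytes. The classical route begins with the rate-limiting hydroxylase Cyp7a1, and Cyp8b1 adds the hydroxyl group that makes cholic acid, whereas the alternative route runs through Cyp27a1 and Cyp7b1. Baat conjugates the products to taurine or glycine, Slc10a1 (NTCP) returns them from portal blood to the hepatocyte, Slco1a1 takes up organic anions and Abcb11 (BSEP) exports bile salts into the canaliculus. The nuclear receptor Nr1h4 (FXR) binds bile acids and induces Nr0b2 (SHP), a corepressor that lowers transcription of Cyp7a1 and Cyp8b1 through the activators Nr5a2 (LRH-1) and HNF4.

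Because Nr0b2 acts on Cyp8b1 through those activators, the promoter windows of both genes are shown. RefSeq windows on GRCm38.p6, from 250 bases before to 50 after the start site, were found for 7 of the 10 genes. Capitals mark matches, on either strand, to CAAGGNCA or TCAAGG, which Nr5a2 is known to bind, and to CAAAGTCCA, a site of HNF4. The Cyp8b1 window is chr9:121916256-121916555 on the minus strand and the Nr0b2 window is chr4:133553126-133553425 on the plus strand, both written 5′ to 3′ in the direction of the gene.
Cyp8b1: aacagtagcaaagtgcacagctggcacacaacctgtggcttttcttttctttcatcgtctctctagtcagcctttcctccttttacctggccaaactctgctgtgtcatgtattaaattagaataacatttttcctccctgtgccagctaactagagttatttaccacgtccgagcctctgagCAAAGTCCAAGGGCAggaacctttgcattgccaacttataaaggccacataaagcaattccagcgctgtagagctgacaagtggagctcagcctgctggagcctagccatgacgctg
Nr0b2: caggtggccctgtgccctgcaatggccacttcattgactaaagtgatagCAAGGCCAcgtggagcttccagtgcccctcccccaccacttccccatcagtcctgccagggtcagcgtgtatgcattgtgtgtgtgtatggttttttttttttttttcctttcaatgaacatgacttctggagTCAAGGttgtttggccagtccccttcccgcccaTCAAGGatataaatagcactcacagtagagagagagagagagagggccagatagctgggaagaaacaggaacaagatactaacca
In Cyp8b1 the HNF4 letters CAAAGTCCA begin at position -67 from the start site and CAAGGGCA begins at -60, so that the matches overlap by 2 bases. In Nr0b2 the letters CAAGGCCA begin at -201 and TCAAGG at -68 and -35. Among all 32851 RefSeq windows of this length, 6.71% hold CAAGGNCA, 14.4% TCAAGG and 0.475% CAAAGTCCA. The half-site AGGTCA, shared by many nuclear receptors, was also searched and stands in 16.3% of windows. It matched in the windows of Slc10a1, Abcb11, Slco1a1 and Nr1h4. The half-site followed by 1 base and its reverse complement was searched too. This inverted repeat stands in 0.00913% of windows and matched in no window of the set. A match is a description of letters and not evidence of binding.

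After partial hepatectomy, 3 of the 7 measured genes passed the test in at least one comparison with 0 h, and all of their called differences were downward. The share of all probe sets passing in any of these comparisons was not counted. Over all probe sets, too, downward calls outnumbered upward ones in each comparison with 0 h. Cyp7a1 was lower at 20 and 30 h in both genotypes, Cyp8b1 was lower at 40 h in both, and Slc10a1 was lower at 20 h in both. Cyp7b1, Baat, Nr0b2 and Nr1h4 did not pass at any time. No gene of the set passed between Cre plus and Cre minus livers. In bulk RNA, fewer cells of a type and less RNA per cell cannot be told apart.

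A probe set was called when limma's moderated test, adjusted over all 9254 probe sets by Benjamini-Hochberg within a comparison, gave a value under 0.05. Of the 9 probe sets, 3, 1 and 3 were called lower at 20, 30 and 40 h in Cre plus livers, where 9.07%, 9.89% and 9.65% of all probe sets were called. The same counts were 3, 3 and 1 in Cre minus livers, where 7.36%, 3.13% and 4.77% of all probe sets were called. The shares of the 9 were 33.3%, 11.1% and 33.3% in Cre plus livers and 33.3%, 33.3% and 11.1% in Cre minus livers, so the single call at 30 h in Cre plus livers lay close to the background. The median difference over the 9 probe sets was -0.57, -0.75 and -0.58 at 20, 30 and 40 h in Cre plus livers, and -0.70, -0.72 and -0.53 in Cre minus livers. Over all tested probe sets the median lay between -0.03 and 0.01 in each of these comparisons. Negative differences were seen for 7, 9 and 9 of the 9 in Cre plus livers and 8, 9 and 9 in Cre minus livers. The 3 comparisons within a genotype share their 0 h livers.

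**Figure D1:**
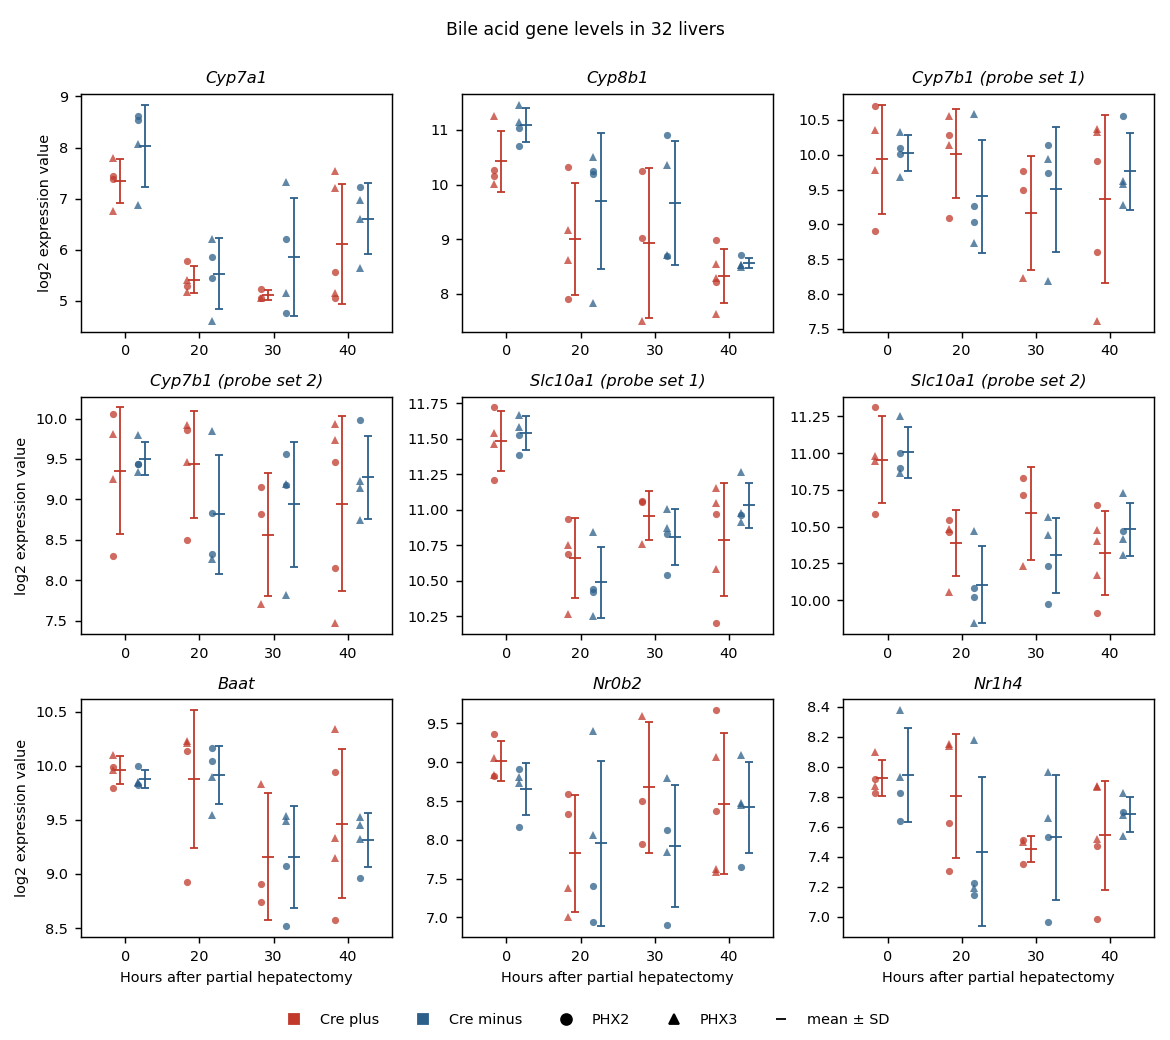
Log2 expression value of each of the 9 tested probe sets against hours after partial hepatectomy, with 1 point per liver (circles PHX2, triangles PHX3) and the mean ± SD of each group beside it. Cyp7a1, Cyp8b1 and Slc10a1 have their highest means at 0 h in both genotypes, and Cyp8b1 lies between 7.63 and 8.98 in Cre plus livers and 8.50 and 8.71 in Cre minus livers at 40 h.

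Cyp7a1, the first and rate-limiting enzyme of the classical route, had the largest early differences of the set. Cyp7a1 in Cre plus livers of 0 h read 7.80, 6.76, 7.39 and 7.45, in those of 20 h 5.41, 5.17, 5.29 and 5.78, in those of 30 h 5.05, 5.06 and 5.24, and in those of 40 h 7.54, 5.16, 7.21, 5.57 and 5.07. Every Cre plus liver at 20 and 30 h lay below every one at 0 h, and at 40 h the livers split, 2 of them near the 0 h level and 3 near that of 20 and 30 h. Cyp7a1 in Cre minus livers of 0 h read 6.88, 8.62, 8.08 and 8.54, in those of 20 h 6.21, 4.61, 5.86 and 5.46, in those of 30 h 7.32, 5.15, 4.76 and 6.21, and in those of 40 h 6.60, 5.65, 6.97 and 7.23. The Cre minus livers at 20 h lay below all of those at 0 h, whereas those at 30 and 40 h overlapped them.

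The group mean of Cyp7a1 in Cre plus livers was 7.35 ± 0.43 (0 h), 5.41 ± 0.26 (20 h), 5.12 ± 0.10 (30 h) and 6.11 ± 1.18 (40 h), as mean ± SD with n = 4, 4, 3 and 5. The Cre minus means were 8.03 ± 0.80, 5.53 ± 0.69, 5.86 ± 1.15 and 6.61 ± 0.69 (SD, n = 4 each). Levels at 20 h were 3.83-fold lower than at 0 h in Cre plus livers, with a log2 difference of -1.94 (SE 0.54) and an adjusted p of 0.0238 in limma. Cre minus levels were 5.65-fold lower, with a log2 difference of -2.50 (SE 0.54, adjusted p = 0.00638, limma). At 30 h the difference from 0 h was -2.23 in Cre plus livers (SE 0.58, adjusted p = 0.0165, limma), which is 4.70-fold lower. The difference at 30 h was -2.17 in Cre minus livers (SE 0.54, adjusted p = 0.0277, limma), or 4.51-fold lower. At 40 h the differences of -1.24 in Cre plus livers and -1.42 in Cre minus livers did not pass (adjusted p = 0.132 and 0.152, limma). By group mean both 0 h groups came first, and the step from Cre plus at 0 h to the next group, Cre minus at 40 h, was larger than either SD. The neighbouring groups from Cre minus at 40 h to Cre plus at 20 h did not differ beyond their SDs, and the step from there to Cre plus at 30 h did. That last step was 0.29, between groups of 4 and 3 livers whose values all lay below the array medians of 5.88 to 5.99. Within the batches the called differences at 20 h were -1.88 in PHX2 and -1.99 in PHX3 for Cre plus livers and -2.93 and -2.07 for Cre minus livers. At 30 h they were -2.27 in PHX2 and -2.23 in PHX3 for Cre plus livers, and -3.10 and -1.25 for Cre minus livers, a gap of more than 1 log2 unit between the batches.

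The call in Cre minus livers at 20 h was kept in 8 of 8 omissions of a single liver, whereas that at 30 h was kept in 3 of 8. It was lost without Cre minus 0 h B, C or D or Cre minus 30 h B or C, with an adjusted p of up to 0.104 in limma. The same call was also lost without the 3 arrays of low correlation (-1.78, adjusted p = 0.0971, limma) and in a fit to only the arrays compared (adjusted p = 0.133, limma). The Cre plus call at 20 h was kept in 3 of 8 omissions and lost without 0 h A, C or D or 20 h A or B, with p up to 0.0752 in limma. That at 30 h was kept in 5 of 7 and lost without 30 h A or B (up to 0.0568, limma).

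Cyp8b1, which sets the proportion of cholic acid, had its lowest group mean at 40 h in both genotypes, although the lowest single liver stood at 30 h in Cre plus and at 20 h in Cre minus livers. Cyp8b1 in Cre plus livers of 0 h read 11.25, 10.01, 10.27 and 10.16, in those of 20 h 8.62, 9.16, 10.32 and 7.90, in those of 30 h 7.51, 9.03 and 10.26, and in those of 40 h 8.29, 8.55, 7.63, 8.98 and 8.21. Cyp8b1 in Cre minus livers of 0 h read 11.46, 10.72, 11.15 and 11.04, in those of 20 h 10.50, 7.84, 10.25 and 10.19, in those of 30 h 10.35, 8.71, 10.91 and 8.70, and in those of 40 h 8.53, 8.50, 8.52 and 8.71. Livers of both genotypes were scattered over more than 2 log2 units at 20 and 30 h, and at 40 h every liver lay below every 0 h liver of its genotype.

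The mean of Cyp8b1 in Cre plus livers was 10.42 ± 0.56, 9.004 ± 1.02, 8.93 ± 1.38 and 8.33 ± 0.49 at 0, 20, 30 and 40 h (SD, n = 4, 4, 3 and 5). The Cre minus means were 11.09 ± 0.31, 9.69 ± 1.24, 9.67 ± 1.13 and 8.56 ± 0.10 (SD, n = 4 each). At 40 h Cyp8b1 was 4.16-fold lower than at 0 h in Cre plus livers, with a log2 difference of -2.05 (SE 0.54, adjusted p = 0.0161, limma). It was 5.41-fold lower in Cre minus livers, with a difference of -2.43 (SE 0.57, adjusted p = 0.00995, limma). The 20 h differences, -1.42 in Cre plus livers and -1.40 in Cre minus livers, did not pass (adjusted p = 0.116 and 0.139, limma). Neither did those at 30 h, -1.55 in Cre plus livers and -1.42 in Cre minus livers (adjusted p = 0.108 and 0.188, limma). Of the steps between neighbours in the order of means, the 1 from Cre minus at 0 h to Cre plus at 0 h exceeded the larger SD. Within the batches the differences at 40 h were -1.62 in PHX2 and -2.47 in PHX3 for Cre plus livers and -2.17 and -2.79 for Cre minus livers. Both calls at 40 h were lost when liver A of the 0 h group of the same genotype was left out, with an adjusted p of 0.0865 in Cre plus livers and 0.0557 in Cre minus livers (limma).

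Cyp7b1, the oxysterol hydroxylase of the alternative route, had both its probe sets in the tests. The first Cyp7b1 probe set in Cre plus livers of 0 h read 10.36, 9.78, 8.91 and 10.69, in those of 20 h 10.14, 10.55, 10.29 and 9.09, in those of 30 h 8.23, 9.76 and 9.49, and in those of 40 h 10.32, 7.62, 10.37, 9.91 and 8.61. The first Cyp7b1 probe set in Cre minus livers of 0 h read 9.68, 10.09, 10.32 and 10.01, in those of 20 h 10.58, 8.74, 9.03 and 9.27, in those of 30 h 9.94, 8.18, 9.74 and 10.14, and in those of 40 h 9.28, 9.62, 9.58 and 10.56. All later groups overlapped their 0 h group, and livers B and E of the Cre plus 40 h group stood low. Differences from 0 h ranged from -0.81 to 0.08 over both probe sets in Cre plus livers and from -0.69 to -0.21 in Cre minus livers. The smallest adjusted p was 0.384 in Cre plus livers and 0.454 in Cre minus livers (limma). The second probe set ordered the livers alike, with B and E of Cre plus at 40 h at 7.46 and 8.15.

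Slc10a1, the sodium-dependent bile acid uptake carrier of the hepatocyte surface, was called lower at 20 h in both genotypes, at 40 h in Cre plus and at 30 h in Cre minus livers. The first Slc10a1 probe set in Cre plus livers of 0 h read 11.54, 11.46, 11.72 and 11.21, in those of 20 h 10.26, 10.75, 10.93 and 10.69, in those of 30 h 10.76, 11.06 and 11.06, and in those of 40 h 11.05, 10.58, 11.15, 10.97 and 10.20. The first Slc10a1 probe set in Cre minus livers of 0 h read 11.58, 11.53, 11.67 and 11.39, in those of 20 h 10.84, 10.25, 10.44 and 10.42, in those of 30 h 10.87, 11.004, 10.54 and 10.83, and in those of 40 h 11.27, 10.98, 10.92 and 10.97. For this probe set no liver at a later time reached the lowest liver at 0 h in either genotype. For the second probe set that was so in Cre minus livers, whereas in Cre plus livers the highest value was 10.83 at 30 h and 10.65 at 40 h, against a lowest value of 10.58 at 0 h.

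The first Slc10a1 probe set was 1.77-fold lower at 20 h than at 0 h in Cre plus livers, with a log2 difference of -0.82 (SE 0.17, adjusted p = 0.00394, limma). It was 2.08-fold lower in Cre minus livers, with a difference of -1.05 (SE 0.17, adjusted p = 5.96e-04, limma). Both calls were kept in 8 of 8 omissions of a single liver. The 30 h difference in Cre plus livers was -0.51 and did not pass (adjusted p = 0.0782, limma), while that at 40 h was -0.70 and passed (adjusted p = 0.00724, limma). The 30 h difference in Cre minus livers was -0.73 and passed (adjusted p = 0.019, limma), while that at 40 h was -0.53 and did not (adjusted p = 0.0799, limma). The interactions at 30 and 40 h, 0.22 and -0.17, did not pass, so the genotypes are not shown to differ in this order. The second probe set was called in the same comparisons, with differences of -0.57 at 20 h and -0.63 at 40 h in Cre plus livers and -0.90 at 20 h and -0.70 at 30 h in Cre minus livers. In the order of means of the first probe set, the step from Cre plus at 0 h to Cre minus at 40 h exceeded the larger SD and no other step did.

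The calls that were lost without 1 liver were, for Slc10a1, those of the first probe set in Cre minus at 30 h (without 0 h A or C or 30 h C, adjusted p up to 0.0632, limma) and 3 of the second probe set. These were Cre minus at 30 h, kept in 2 of 8 omissions (lost without 0 h A, B or C or 30 h B, C or D), Cre plus at 20 h, kept in 3 of 8 (lost without 0 h A, B or C or 20 h A or B), and Cre plus at 40 h, kept in 7 of 9 (lost without 0 h C or 40 h E).

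Baat, the enzyme that conjugates bile acids to amino acids, differed from 0 h by -0.08 in Cre plus livers and 0.04 in Cre minus livers at 20 h, and had lower means at 30 and 40 h that did not pass the test. Baat in Cre plus livers of 0 h read 9.96, 10.10, 9.99 and 9.79, in those of 20 h 10.21, 10.23, 8.92 and 10.14, in those of 30 h 9.83, 8.91 and 8.74, and in those of 40 h 9.15, 10.34, 9.33, 8.57 and 9.94. Baat in Cre minus livers of 0 h read 9.85, 9.82, 9.84 and 9.996, in those of 20 h 9.54, 9.90, 10.16 and 10.05, in those of 30 h 9.53, 9.49, 8.52 and 9.08, and in those of 40 h 9.45, 9.32, 9.52 and 8.96. All Cre minus livers at 30 and 40 h lay below those at 0 h, and the Cre plus groups overlapped. The differences at 30 h were -0.75 in Cre plus livers and -0.72 in Cre minus livers (adjusted p = 0.124 and 0.183, limma). At 40 h they were -0.53 in Cre plus livers and -0.65 in Cre minus livers (adjusted p = 0.234 and 0.241, limma).

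Nr0b2, the corepressor SHP, varied more between livers of a group after surgery than before it. Nr0b2 in Cre plus livers of 0 h read 8.83, 9.05, 9.37 and 8.82, in those of 20 h 7.003, 7.38, 8.33 and 8.59, in those of 30 h 9.60, 7.94 and 8.50, and in those of 40 h 7.63, 9.07, 7.58, 8.37 and 9.67. Nr0b2 in Cre minus livers of 0 h read 8.73, 8.17, 8.81 and 8.92, in those of 20 h 8.06, 9.40, 6.95 and 7.41, in those of 30 h 7.85, 8.79, 6.91 and 8.12, and in those of 40 h 8.48, 9.09, 8.44 and 7.66. The Cre plus livers at 20 h lay below all of those at 0 h, and every other later group overlapped its 0 h group. The SD was 0.26 in Cre plus livers and 0.34 in Cre minus livers at 0 h, and between 0.76 and 0.91 in Cre plus livers and 0.59 and 1.07 in Cre minus livers later. The equality of these spreads was not tested. The difference at 20 h was -1.19 in Cre plus livers (SE 0.50, adjusted p = 0.135, limma) and -0.70 in Cre minus livers (SE 0.50, adjusted p = 0.44, limma).

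Nr1h4, the bile acid receptor FXR, was called in no comparison and read between 6.96 and 8.38 over all 32 livers. Nr1h4 in Cre plus livers of 0 h read 8.10, 7.87, 7.92 and 7.82, in those of 20 h 8.14, 8.15, 7.30 and 7.63, in those of 30 h 7.50, 7.35 and 7.51, and in those of 40 h 7.87, 7.52, 7.87, 6.99 and 7.47. Nr1h4 in Cre minus livers of 0 h read 7.93, 7.64, 8.38 and 7.82, in those of 20 h 8.18, 7.19, 7.22 and 7.15, in those of 30 h 7.66, 7.96, 6.96 and 7.53, and in those of 40 h 7.82, 7.54, 7.68 and 7.70. The Cre plus livers at 30 h lay below all at 0 h, and the other groups overlapped. Differences from 0 h ran from -0.42 to -0.12 in Cre plus and from -0.51 to -0.36 in Cre minus livers. The lowest adjusted p was 0.12 in Cre plus livers and 0.0804 in Cre minus livers (limma). For Baat, Nr0b2 and Nr1h4 no step in the order of group means exceeded the larger SD.

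**Figure D2:**
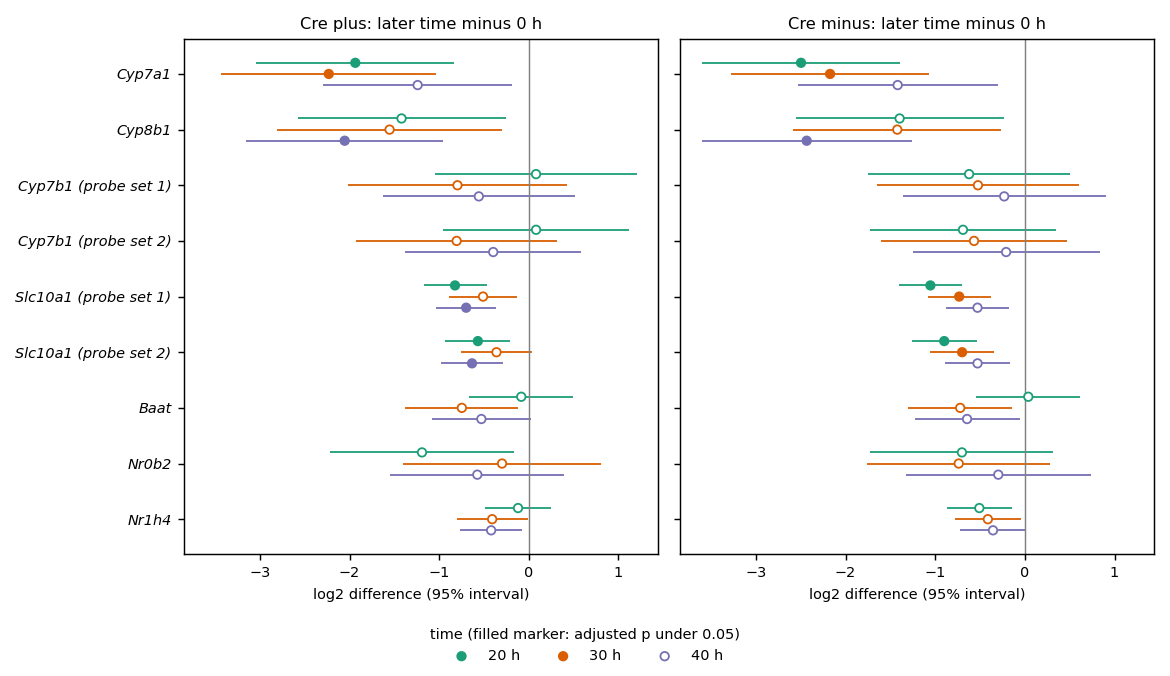
Difference in log2 level at 20, 30 and 40 h from 0 h with its 95% interval, in Cre plus livers (left) and Cre minus livers (right). Filled markers have an adjusted p under 0.05: Cyp7a1 at 20 and 30 h and Cyp8b1 at 40 h are filled in both panels, with Cyp7a1 at -1.94 and -2.50 at 20 h.

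The mean of Cyp7a1 was lower at 20 h than at 40 h and that of Cyp8b1 was lower at 40 h than at 20 h, so these times were compared directly, a comparison chosen after the values were seen. For Cre plus livers the level of Cyp7a1 at 40 h minus that at 20 h was 0.70 (SE 0.51, adjusted p = 0.723, limma) and that of Cyp8b1 was -0.63 (SE 0.54, adjusted p = 0.751, limma). The Cre minus differences were 1.08 for Cyp7a1 (SE 0.54, adjusted p = 0.213, limma) and -1.04 for Cyp8b1 (SE 0.57, adjusted p = 0.252, limma). No probe set of the 9 passed in either genotype, with 0% of all probe sets called in Cre plus livers and 5.80% in Cre minus livers. At an unadjusted p under 0.05, limma gave 0 of the 9 in Cre plus livers and 3 in Cre minus livers.

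Between genotypes no probe set of the set was called at 0, 20, 30 or 40 h, where 0.0648%, 0.292%, 0.281% and 5.35% of all probe sets were called. At an unadjusted p under 0.05, limma gave 0, 1, 0 and 0 of the 9, the 1 being Nr1h4 at 20 h with a difference of 0.37. At 0 h the difference between Cre plus and Cre minus livers was -0.68 for Cyp7a1 (95% interval -1.79 to 0.42) and -0.67 for Cyp8b1 (95% interval -1.83 to 0.49), and neither passed (adjusted p = 1, limma). Cyp8b1 differed by -0.69, -0.80 and -0.29 at 20, 30 and 40 h, and its intervals extended down to -1.85, -2.05 and -1.39. For Slc10a1 the intervals were narrower, within -0.56 and 0.54 for the first probe set at every time. Nr0b2 differed by 0.36, -0.13, 0.80 and 0.08 at 0, 20, 30 and 40 h. Its differences within the batches had opposite signs at 20 h (1.28 in PHX2, -1.54 in PHX3) and at 40 h (1.36 and -0.57). Cyp7a1 at 40 h likewise differed by -1.91 in PHX2 and 0.23 in PHX3. These intervals do not show that the genotypes had equal levels.

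**Figure D3:**
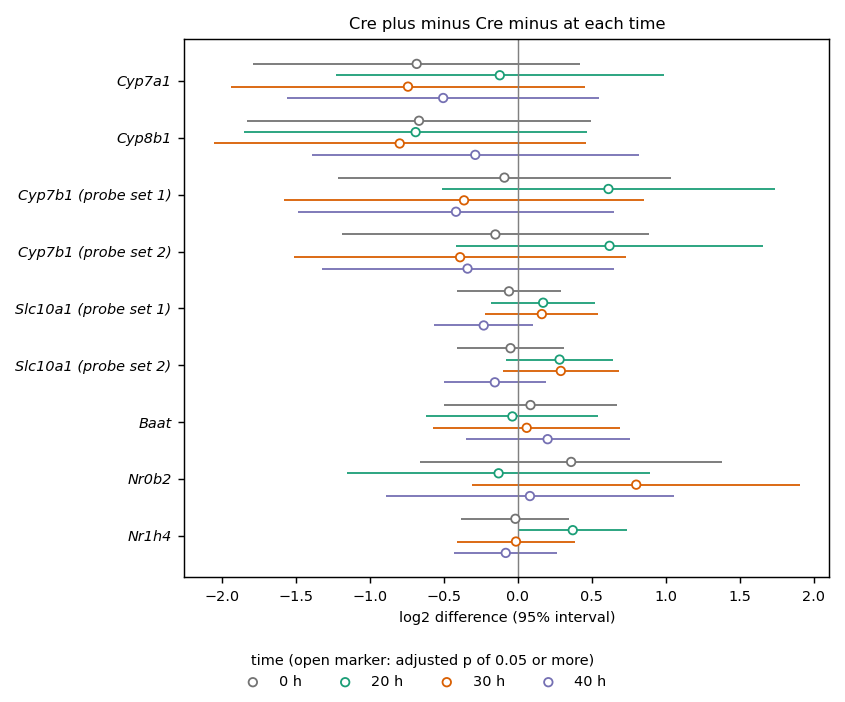
Difference in log2 level between Cre plus and Cre minus livers at 0, 20, 30 and 40 h for the 9 tested probe sets, with 95% intervals. All markers are open (adjusted p of 0.05 or more), and the Slc10a1 intervals are narrower than those of Cyp7a1 and Cyp8b1.

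The interaction (the difference between genotypes at a later time minus the difference at 0 h) was called for none of the 9 at 20, 30 or 40 h. Over all probe sets 0%, 0.0108% and 0.584% were called, and at an unadjusted p under 0.05 limma gave 0 of the 9 at each time. For Cyp7a1 the interaction was 0.56 at 20 h (95% interval -1.003 to 2.13), -0.06 at 30 h and 0.18 at 40 h. For Cyp8b1 it was -0.02, -0.13 and 0.38, the last with an interval of -1.22 to 1.98. For both genes the interval at 40 h spans more than 1 log2 unit on either side of 0.

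Among 17 further genes of bile acid synthesis and conjugation, 12 were tested. At 20, 30 and 40 h, 1, 3 and 4 were called lower in Cre plus livers, with none higher. These are 8.33%, 25% and 33.3% of the 12, against 9.07%, 9.89% and 9.65% of all probe sets, so the single call at 20 h lay at the background. Cre minus livers had 2 called lower at each later time and 1 higher at 20 h, or 25%, 16.7% and 16.7% against 7.36%, 3.13% and 4.77% of all probe sets. The medians of the 12 differences were -0.16, -0.25 and -0.25 in Cre plus livers and -0.19, -0.08 and -0.12 in Cre minus livers. Hsd3b7, the dehydrogenase that follows Cyp7a1 in the pathway, fell by 1.03, 1.19 and 1.12 at 20, 30 and 40 h in Cre plus livers. Its called Cre minus differences were -0.85 at 20 h and -0.78 at 40 h. Slc27a5, the bile acid ligase that precedes Baat, was lower at 40 h in Cre plus livers (-0.73) and at 20, 30 and 40 h in Cre minus livers (-0.52, -0.74 and -0.86). Cyp2c70, the mouse enzyme that makes muricholic acids, was lower at 30 and 40 h in Cre plus livers (-1.08 and -1.20) and at 30 h in Cre minus livers (-1.12). Akr1c6 was lower at 30 and 40 h in Cre plus livers (-1.28 and -1.06). Ehhadh, a peroxisomal enzyme of fatty acid oxidation, was the gene higher in Cre minus livers at 20 h (1.75, SE 0.53, adjusted p = 0.0442, limma).

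None of the 7 tested genes among 16 further carriers of bile acids, lipids and organic anions was called in any comparison. Among 18 further sensors and regulators of Cyp7a1, 13 were tested and none was called against 0 h in Cre minus livers. Cre plus livers had 1 lower at 20 h, 3 lower and 1 higher at 30 h, and 1 lower and 1 higher at 40 h. These are 7.69%, 30.8% and 15.4% of the 13, so that at 20 h, where 9.07% of all probe sets were called, the list lay below the background. At 30 h 9.89% of all probe sets were called. At 40 h the 2 calls of the list compare with 9.65% of all probe sets, a share near the background for so few genes. Nr5a2, the activator named above, was lower at 20 and 30 h in Cre plus livers (-0.82 and -0.93, adjusted p = 0.0157 and 0.0118, limma). Fgfr4, the receptor of the intestinal hormone FGF15, was lower at 30 and 40 h (-0.48 and -0.42). Foxa2, a hepatocyte transcription factor, was lower at 30 h (-0.80), and the nuclear receptor Hnf4a was higher at 30 h (0.60). Nr1i2, the xenobiotic receptor PXR, was higher at 40 h (0.52). No interaction was called in this list, so a difference between genotypes in these genes is not shown. Of 7 bile acid detoxification genes 5 were tested, and Cyp2b10 was the 1 called, or 20% of the 5 in each comparison that called it. It was higher at 20 and 30 h in Cre plus livers (1.97 and 1.71) and at 20 h in Cre minus livers (2.10). These comparisons called 9.07%, 9.89% and 7.36% of all probe sets, so 1 call of 5 is near the background for so few genes.

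**Figure D4:**
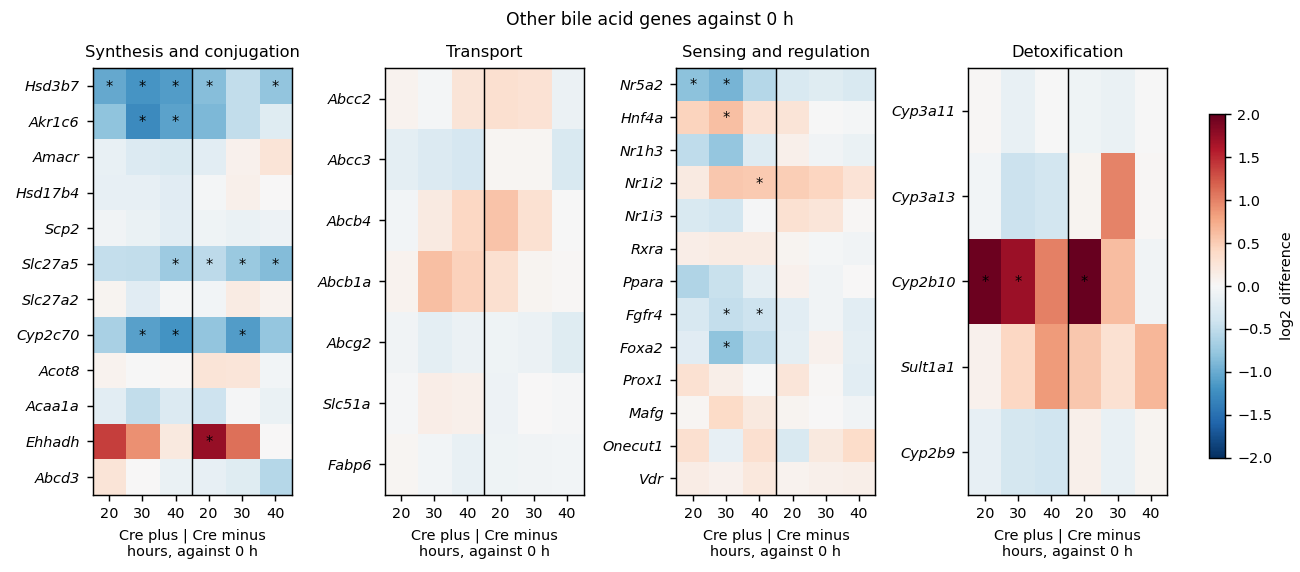
Log2 difference from 0 h (colour, limits -2 to 2) of the tested genes of the other bile acid lists at 20, 30 and 40 h, Cre plus left of Cre minus in each panel. Asterisks mark an adjusted p under 0.05 and stand for Hsd3b7 in 5 of the 6 columns.

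Other marker genes moved with the same comparisons, and their part in the differences above was not tested. Of 10 measured Kupffer cell and macrophage markers (12 listed), 0, 5, 2 and 6 were called lower in Cre plus than in Cre minus livers at 0, 20, 30 and 40 h. Between genotypes 0.0648%, 0.292%, 0.281% and 5.35% of all probe sets were called at these times. Against 0 h, 5, 1 and 6 were lower at 20, 30 and 40 h in Cre plus livers and 0 at each time in Cre minus livers. All probe sets gave 9.07%, 9.89% and 9.65% in Cre plus livers and 7.36%, 3.13% and 4.77% in Cre minus livers. The 1 lower marker of 10 at 30 h in Cre plus livers thus lay at the background. The mean log2 value of the 10 markers per Cre plus liver was 7.27 to 7.81 before, then 6.62 to 7.22 (20 h), 6.69 to 7.29 (30 h) and 6.62 to 7.32 (40 h). Per Cre minus liver it was 7.84 to 8.15, 7.68 to 8.06, 7.32 to 7.85 and 7.40 to 8.09 in the same order of times. Of 9 tested clock genes (12 listed), Nr1d1, whose product represses clock genes, was lower at 20, 30 and 40 h in both genotypes (-1.28, -1.20 and -0.86 in Cre plus livers, -1.45, -0.98 and -1.04 in Cre minus livers). Per1 was higher at all 3 times in Cre plus livers (0.63, 0.72 and 0.42), and no other clock gene was called against 0 h. The 9 hepatocyte markers had a mean per liver of 12.11 to 12.41 in Cre plus livers and 12.21 to 12.43 in Cre minus livers over all times.

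Of these 9 markers, 2, 2 and 2 were called higher and 0, 2 and 2 lower at 20, 30 and 40 h in Cre plus livers. Cre minus livers had 1, 2 and 0 higher and 1, 1 and 0 lower. Of all probe sets 9.07%, 9.89% and 9.65% were called in Cre plus livers and 7.36%, 3.13% and 4.77% in Cre minus livers. Ttr, the thyroid hormone carrier transthyretin, was lower at 30 and 40 h in Cre plus livers (-1.25 and -1.64) and at 20 and 30 h in Cre minus livers (-1.35 and -1.29). It was the 1 hepatocyte marker called between genotypes, lower in Cre plus livers at 40 h (-1.24, adjusted p = 0.0227, limma). Apoa2, an apolipoprotein of HDL, was lower at 30 and 40 h in Cre plus livers (-0.40 and -0.38). Fgb, a fibrinogen chain, was higher at 20, 30 and 40 h in Cre plus livers (0.69, 0.61 and 0.61) and at 20 and 30 h in Cre minus livers (0.64 and 0.57). Tat, the tyrosine aminotransferase, was higher at all 3 times in Cre plus livers (0.95, 1.23 and 0.81) and at 30 h in Cre minus livers (0.59). Called hepatocyte markers thus lay on both sides of 0.

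Of 5 tested cholangiocyte markers, Krt19 was called, higher at 40 h in Cre plus livers (0.56, adjusted p = 0.0085, limma). That comparison called 9.65% of all probe sets. The haemoglobin genes Hba-a1 and Hbb-b2, of 5 tested erythroid markers, were lower in Cre plus than in Cre minus livers at 20 h (-2.59 and -2.53). They were also lower at 40 h (-3.12 and -3.13), and higher at 40 h than at 0 h in Cre minus livers (2.23 and 2.16). The erythroid markers Alas2, Epb42 and Slc4a1 were called in none of these comparisons. Their differences at 40 h were -0.27, 0.05 and -0.09 between genotypes, and -0.73, -0.15 and 0.08 from 0 h in Cre minus livers. Of 10 tested acute-phase genes, Lcn2 was higher at 20, 30 and 40 h in Cre plus livers (3.18, 3.002 and 3.54) and in Cre minus livers (3.56, 3.57 and 3.33). Saa2 was higher at 20 and 40 h in Cre plus livers (1.20 and 1.41) and at 30 and 40 h in Cre minus livers (1.44 and 1.47). Orm1 was higher at 20, 30 and 40 h in Cre plus livers (0.55, 0.58 and 0.77). Saa3 was lower at 20 and 40 h in Cre plus livers (-2.01 and -2.15) and at 20, 30 and 40 h in Cre minus livers (-2.40, -2.24 and -2.90). Hsd3b5, of 5 tested male-biased liver genes, was lower at 20, 30 and 40 h in Cre plus livers (-3.46, -3.53 and -3.83) and at 20 and 30 h in Cre minus livers (-3.85 and -2.99). Igfals was lower at 20, 30 and 40 h in Cre plus livers (-1.10, -1.51 and -1.05) and at 20 h in Cre minus livers (-1.001). At 40 h Igfals was also lower in Cre plus than in Cre minus livers (-1.07, adjusted p = 0.0167, limma). Cyp2d9, Elovl3 and Gstp1 were each called lower in some comparisons with 0 h. The neutrophil marker S100a8 was higher at 20 h in Cre minus livers (1.09), the 1 call among 7 neutrophil markers. In that comparison 7.36% of all probe sets were called. Of 6 tested endothelial markers, the receptor Kdr was lower at 20, 30 and 40 h in Cre plus livers (-0.53, -0.42 and -0.45) and at 20 and 40 h in Cre minus livers (-0.38 and -0.33). None of 7 stellate cell and fibroblast markers or 6 T, NK and B cell markers was called in any comparison. Of 8 pericentral hepatocyte genes, Glul was lower at 30 h (-1.16) and Cyp2e1 at 40 h (-0.32) in Cre plus livers. Cyp1a2 was lower at 20 h in Cre minus livers (-0.85). These comparisons called 9.89%, 9.65% and 7.36% of all probe sets, so 1 call of 8 is near the background for so few genes. Not all genes of the list had lower means. Oat differed from 0 h at 30 h by 0.91 in Cre plus livers and 1.13 in Cre minus livers. Neither difference passed (adjusted p = 0.159 and 0.0977, limma). Of 6 periportal genes, calls included Cyp2f2 and Arg1 at 20 h in Cre minus livers (-1.24 and 0.58). Ass1 was higher in Cre plus than in Cre minus livers at 30 h (0.37). Of 2 tested genes of the enterocyte list, Apoa4 was higher at all 3 times in both genotypes and Fabp2 was called at none. The mean level of Apoa4 was above that of 99.46% of probe sets, whereas Vil1, Cdx2 and Lct did not pass the low-value filter. At 20, 30 and 40 h against 0 h, 9.07%, 9.89% and 9.65% of all probe sets were called in Cre plus livers. The Cre minus shares were 7.36%, 3.13% and 4.77%.

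The genes whose profiles over the 32 arrays were most like each probe set, with batch removed, are given as a description. The arrays share the time course, so the values carry no p. Cyp7a1 was closest to Gstz1 (r = 0.864), Hsd3b2 (0.856) and Car5a (0.852). Cyp8b1 was closest to Csad (0.856), which makes the taurine precursor hypotaurine, to Cxcl9 (0.805) and to Cyb5r3 (0.803). The first Slc10a1 probe set was closest to Pxmp2 (0.924), Qdpr (0.921) and Nit2 (0.916), and the second to Qdpr (0.899), Fah (0.862) and Ivd (0.859). Both Cyp7b1 probe sets were closest to Slc22a30 (0.802 and 0.794) and Lum (0.772 and 0.769). The nearest profile was that of Mpg for Baat (0.829), Slc6a6 for Nr0b2 (0.783) and S100a13 for Nr1h4 (0.715), so the regulators had less close neighbours than Slc10a1.

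Whether livers of 1 group with more Nr0b2 had less Cyp7a1 or Cyp8b1 was examined on deviations from the group and batch means over the 32 livers. Of 4 relations planned, 3 could be run, since Abcb11 was not measured. For Nr0b2 and Cyp7a1 Pearson's r was -0.443 (permutation p = 0.0408, 0.0781 after Benjamini-Hochberg over the 3) and Spearman's rho -0.377 (permutation p = 0.0638). It fell to -0.311 in size without the 2 livers farthest from the median of Nr0b2, was -0.653 without the 3 arrays of low correlation (n = 29), and was 0.293 in PHX2 and -0.904 in PHX3. For Nr0b2 and Cyp8b1 r was -0.425 (permutation p = 0.0520, adjusted 0.0781) and rho -0.339 (permutation p = 0.114), with r at -0.432 in PHX2, -0.454 in PHX3, -0.302 without the 2 farthest and -0.277 without the 3 arrays. For Nr1h4 and Nr0b2 r was -0.198 (permutation p = 0.393) and rho -0.154 (permutation p = 0.456), with r at 0.890 in PHX2 and -0.607 in PHX3. This r was -0.0894 without the 2 livers farthest from the median of Nr1h4 and -0.321 without the 3 arrays. None of the 3 passed, and the first and the last did not hold their sign within the batches.

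All 21 pairs of the 7 measured genes were then computed, an extension chosen after the values were seen. After Benjamini-Hochberg adjustment over the 21, 2 passed, and both were negative. For Cyp7b1 and Nr0b2 r was -0.620 (permutation p = 0.00369, adjusted 0.0387) and rho -0.602 (permutation p = 0.00343, adjusted 0.0490), with r at -0.470 in PHX2, -0.883 in PHX3 and -0.598 without the 2 livers farthest from the median of Cyp7b1. For Cyp7b1 and Baat r was -0.656 (permutation p = 0.00296, adjusted 0.0387) and rho -0.586 (permutation p = 0.00467, adjusted 0.0490), with r at -0.675 in PHX2, -0.825 in PHX3 and -0.598 without the 2 farthest. Both kept their sign without the 3 arrays of low correlation with their group (-0.603 and -0.642, n = 29). The gap between the 3′ and 5′ Actb control probe sets, a sign of RNA quality, correlated with the same deviations at -0.331 for Nr0b2, 0.168 for Cyp7b1 and -0.155 for Baat, and its part in the relations was not tested.

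**Figure D5:**
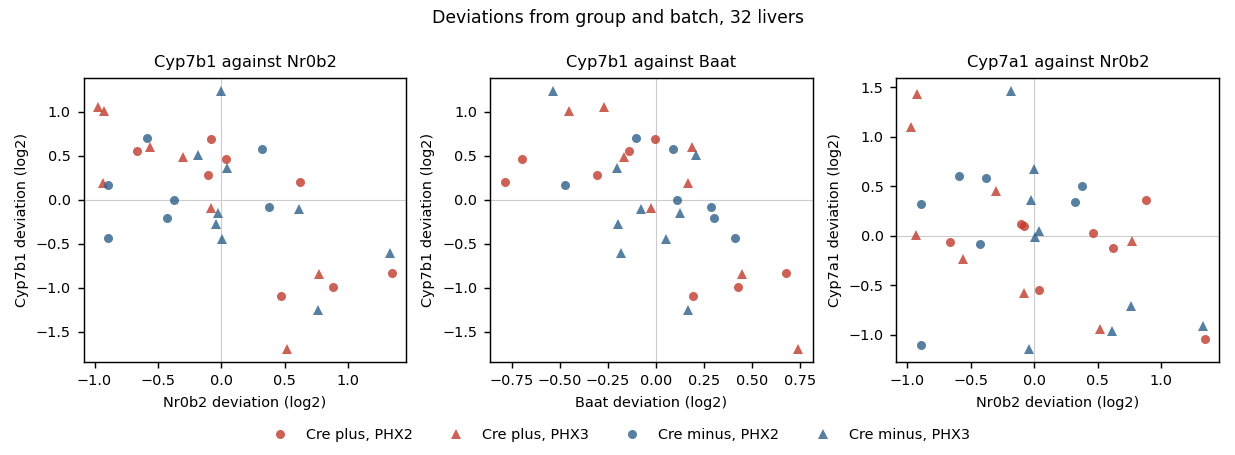
Deviation of each of the 32 livers from its group and batch mean (log2), for Cyp7b1 against Nr0b2, Cyp7b1 against Baat and Cyp7a1 against Nr0b2, red for Cre plus and blue for Cre minus (circles PHX2, triangles PHX3). The first 2 panels slope downward (r = -0.620 and -0.656), and in the last the slope is carried by PHX3 (r = -0.904, against 0.293 in PHX2).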

How the data were processed

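Biotin-labelled cRNA from total liver RNA was hybridised to 1-colour oligonucleotide arrays. Per the submitters' processing notes, RMA gave the log2 expression values deposited by the authors. No source used here gives its version or says whether both batches were normalized in 1 run. The base was taken as 2 because values run between 2.30 and 14.12. The 32 columns were all matched to samples. The platform annotation, with current symbols, gave the gene of each probe set. Of the probe sets, 10833 had 1 gene, 396 several, 1193 none named here and 66 were controls. The model, fitted to all arrays with limma 3.58.1 (lmFit and eBayes, R 4.3.3, 2-sided tests), had a term for each of 8 groups and 1 for batch. The probe set with the highest mean stood for each gene of the other lists. Differences are on the log2 scale with SE, group values are means with SD, and folds are 2 to the power of the difference. Relations were computed with NumPy 2.4.6, with ranks from SciPy 1.17.1, and 100000 resamples that permuted livers within groups. Promoters and motif matches were read from RefSeq tables of GRCm38.p6. The number of arrays limits the precision.

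The members, lists and tests were chosen with earlier results of these data known. All probe sets of the 10 genes are named. Of each further bile acid list, all genes called against 0 h are named. The plan had been to name up to 3 per comparison by the size of the difference. For each tested probe set the 3 most similar genes were listed, of which those printed are the nearest 1 to 3. Markers of liver cell types, clock, acute-phase and male-biased genes were tested as lists. Pericentral hepatocyte, periportal hepatocyte and enterocyte genes were tested the same way, and not all of their calls are given. All called hepatocyte, cholangiocyte and clock genes are named, and the genes named from the other marker lists were chosen after their values were seen. Alternatives were other normalizations, no batch term, a replicate block, array weights, each batch alone and leaving out each liver. The calling script was checked on simulated data. Replicate letters were not used to pair livers, because arrays of a letter deviated together at a mean r of -0.06 to 0.01. No 2 arrays held identical values.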

Additional observations from a re-analysis of the deposited data

Results flagged for a closer look

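In 63 groups of 4 or 5 livers over the 9 probe sets, 5 livers stood far enough from the rest of their group to pass Dixon's test at the 95% level, where chance marks about 1 group in 20. Baat read 8.92 in Cre plus 20 h C, with the next liver at 10.14. It read 9.996 in Cre minus 0 h D, next to 9.85. Cyp8b1 read 7.84 in Cre minus 20 h B, with the next liver at 10.19, and 8.71 in Cre minus 40 h D, next to 8.53. Nr1h4 read 8.18 in Cre minus 20 h A, with the next at 7.22.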

How the results depend on the processing

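The number of the 9 probe sets called depended on the processing in every comparison with 0 h. With array weights it was 5 at 20 h and 6 at 30 h in Cre plus livers, and 5, 6 and 6 at 20, 30 and 40 h in Cre minus livers. Array weights also called 2 between genotypes at 30 h (Cyp7a1 -1.43 and the second Slc10a1 probe set 0.45) and 1 interaction at 30 h, where none was called otherwise. With only the arrays compared, 4 were called at 30 h and 1 at 40 h in Cre plus livers and 5 at 40 h in Cre minus livers. Without the arrays of low correlation, 2 were called at 30 h in Cre plus livers and 2 at 40 h in Cre minus livers. In PHX2 alone 0 were called at each time in Cre plus livers, and 1, 1 and 0 at 20, 30 and 40 h in Cre minus livers. In PHX3 alone 0 were called at 30 and 40 h in Cre plus livers and 0 at 30 h in Cre minus livers. Leaving out 1 liver of the groups compared gave 1 to 4, 0 to 2 and 2 to 4 calls at 20, 30 and 40 h in Cre plus livers, and 3 to 4, 0 to 3 and 0 to 1 in Cre minus livers. The batches alone and the omissions use fewer samples, and the cause of the other shifts was not tested.

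The letters do not pair the livers, since 6 of 32 arrays correlated best with an array of their own letter. With the replicate block, 3, 1 and 2 were called at 20, 30 and 40 h in Cre plus livers, against 3, 3 and 1 in Cre minus livers, and the call lost was the second Slc10a1 probe set in Cre plus livers at 40 h. Of 121 differences that were not called, 2522 alternatives gave 42 calls, and none reversed a called direction. With 3 to 5 arrays a group, intervals of Cyp7a1 and Cyp8b1 differences are wider than 2 log2 units.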
